A study of Mus musculus with 12 samples.

Results

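The CXC and CX3C chemokines described here are 9 genes of the ligand family, Cxcl1, Cxcl2, Cxcl5, Cxcl9, Cxcl10, Cxcl11, Cxcl12, Cxcl16 and Cx3cl1, in a murine liver sinusoidal endothelial line exposed to fatty acids, to a bile acid receptor agonist, or to both. A member was taken as measured where the array table held a transcript annotated to its symbol and to no other. Of the 9, 4 were measured, by 1 transcript each: Cxcl10, Cxcl12, Cxcl16 and Cx3cl1. All 4 lay over the detection threshold of 4.5 on the log2 scale in 12 of 12 arrays. Cxcl1, Cxcl2, Cxcl5, Cxcl9 and Cxcl11 had no such transcript in the filtered table, so no value is given for them. The table held 26076 transcripts in all, of which 14317 carried 1 symbol, for 13556 genes.

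The cells, TSEC, are 1 immortalized mouse line derived from the endothelium of the liver sinusoid. The 12 arrays fall into 4 treatments of 3 arrays each. FFA+INT-767 cells received oleic acid (0.66 mM), palmitic acid (0.33 mM) and INT-767 (30 uM). FFA cells received both fatty acids alone, INT-767 cells the agonist alone, and Media cells neither. The labels give 8 hours for each exposure and no time for Media cells. The methods describe fatty acid stocks in DMSO and do not say whether untreated cells received DMSO, so its part was not tested. INT-767 is a bile acid derivative that activates the nuclear receptor FXR and the membrane receptor TGR5. The study's methods give a lower dose of oleic acid and a longer exposure than the labels do, so dose and time are uncertain. The labels call the arrays of a treatment biological replicates, and the methods describe wells of the line, so p-values here rest on the variation among these wells, part of which can be technical.

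Chemokines are small secreted proteins that guide leukocytes through receptors coupled to G proteins. CXC ligands that carry a Glu-Leu-Arg motif (Cxcl1, Cxcl2, Cxcl5) attract neutrophils through CXCR2, and the interferon-induced ligands Cxcl9 and Cxcl10 attract activated T cells and NK cells through CXCR3. Cxcl11 is another ligand of that receptor in humans, while the mouse gene is annotated by RefSeq as a transcribed pseudogene. Cxcl12 binds CXCR4 and the scavenging receptor ACKR3 and is made mainly by stromal and endothelial cells. Cxcl16, the ligand of CXCR6, and Cx3cl1, the ligand of CX3CR1, are made as membrane-anchored proteins that hold cells at the endothelial surface until a protease sheds them. In the liver sinusoid, Cxcl16 is known for retaining patrolling NKT cells.

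Of the 9 genes, 6 had a promoter window in RefSeq (mouse assembly GRCm38.p6), which runs 250 bases before to 50 bases after the start of the gene. The windows of the 3 measured members with an entry are printed because the results below turn on these genes and on Cxcl16. Capitals mark matches, on either strand, to the kappaB motif bound by NF-kB, to the interferon-stimulated response element (ISRE, GAAA and GAAA parted by 2 bases), to the GAS motif (TTC and GAA parted by 3 bases) and to AP-1 (TGANTCA). The Cxcl10 gene lies on the minus strand at chr5:92346638-92348889, with its window at chr5:92348840-92349139. The Cxcl12 gene lies on the plus strand at chr6:117168535-117181368, with its window at chr6:117168285-117168584. The Cx3cl1 gene lies on the plus strand at chr8:94772180-94782427, with its window at chr8:94771930-94772229.
Cxcl10: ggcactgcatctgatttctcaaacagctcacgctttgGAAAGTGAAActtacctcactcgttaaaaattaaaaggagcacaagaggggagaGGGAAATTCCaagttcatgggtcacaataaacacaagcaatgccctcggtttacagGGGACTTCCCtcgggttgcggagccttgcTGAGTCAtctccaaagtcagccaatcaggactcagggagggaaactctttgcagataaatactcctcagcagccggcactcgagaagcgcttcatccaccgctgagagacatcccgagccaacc
Cxcl12: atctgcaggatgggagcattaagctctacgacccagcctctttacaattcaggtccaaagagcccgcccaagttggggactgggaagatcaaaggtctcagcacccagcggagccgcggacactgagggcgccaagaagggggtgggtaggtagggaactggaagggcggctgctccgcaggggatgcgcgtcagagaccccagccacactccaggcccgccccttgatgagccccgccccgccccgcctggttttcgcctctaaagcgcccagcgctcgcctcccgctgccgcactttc
Cx3cl1: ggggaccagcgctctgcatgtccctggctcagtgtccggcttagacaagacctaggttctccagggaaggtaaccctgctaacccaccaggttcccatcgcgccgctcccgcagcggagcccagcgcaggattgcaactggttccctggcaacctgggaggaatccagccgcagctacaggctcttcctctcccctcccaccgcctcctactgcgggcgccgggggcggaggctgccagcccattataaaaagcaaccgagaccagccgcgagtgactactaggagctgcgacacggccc

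The Cxcl10 window held 1 ISRE, from -213 to -204 relative to the start, 2 kappaB matches, from -159 to -150 and from -103 to -94, and 1 AP-1 match, from -74 to -68. No 2 of these matches overlapped. The Cxcl12 and Cx3cl1 windows held 0 matches to the 4 motifs, which says only that these letters are not in these windows. Among all 32851 promoter windows, 4.51% held a kappaB match, 3.44% an ISRE, 8.3% a GAS match and 7.81% an AP-1 match. Of the members with no value on the arrays, Cxcl1 and Cxcl2 each had kappaB matches in their windows, 2 on opposite strands that overlapped in all but 1 base, and Cxcl9 had 1 AP-1 match after its start. The Cxcl16 gene lies at chr11:70454389-70459984.

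Before the results, the arrays as a whole and the identity of the cells were examined. Array medians lay between 5.76 and 5.87 (log2), and between 21150 and 22137 transcripts per array exceeded the threshold. Of 15 endothelial markers 6 were measured, and the defining genes Pecam1, Cdh5, Tek and Vwf had no transcript annotated to them alone in the filtered table. Among the 6 measured, 4 exceeded the threshold in 12 of 12 arrays, and Flt1 was highest with a mean of 7.52. The 1397 transcripts with several symbols did not count as measured for any marker, so such an absence does not show that the table lacks the gene. Of 15 sinusoidal endothelial markers 5 were measured, without Stab1, Stab2, Lyve1 or Clec4g. Among the 5 measured, 3 exceeded the threshold in 12 of 12 arrays: Maf (mean 7.74), Gata4 (6.62) and F8 (5.18). Of 15 stellate and fibroblast markers 11 were measured, without Lum, Lrat, Reln or Hand2. Among the 11 measured, 9 exceeded the threshold in 12 of 12 arrays (Acta2 averaged 9.45 and Dcn 7.78), Col1a2 in 8 and Rgs5 in 1. Macrophage markers measured numbered 4 of 13, and only Cd68 (mean 6.34) exceeded the threshold in 12 of 12 arrays. Lymphocyte markers measured numbered 0 of 10. Of 12 hepatocyte markers 8 were measured. The keratins Krt8 (11.13) and Krt18 (11.09), which other epithelia also make, Ahsg (9.90), Apoa1, Apoa2 and Tat averaged over the threshold. Alb and Ttr exceeded it in 1 of 12 arrays each, and Cyp2e1, Cps1, Fgb and Hnf4a had no transcript annotated to them alone. In bulk samples, fewer cells of a type and less RNA per cell cannot be told apart.

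Arrays that shared a replicate number deviated together over the whole table. With the treatment groups as covariates, limma called 5323 of 26076 transcripts by replicate number at an adjusted p under 0.05, which is 20.4%. In each of the 5 comparisons of treatments, the FFA effect, the INT-767 effect and their interaction, it called 0 transcripts (0%) with or without the replicate number as a block. Values without the block are given first below, and blocked values beside them where they differ in what passed an unadjusted p of 0.05.

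Cxcl10, the CXCR3 ligand, spanned 3.14 log2 units over the arrays. It measured 6.38, 6.89 and 7.18 (log2, replicates 1, 2 and 3) in FFA+INT-767 cells, and 7.05, 7.03 and 7.41 in FFA cells. It measured 6.88, 7.27 and 8.52 in INT-767 cells and 7.81, 7.11 and 9.52 in Media cells. The array of Media replicate 3 was the highest of 12 and that of INT-767 replicate 3 the next. In replicate 2 the 4 treatments stayed within a narrow band, and every treatment overlapped Media.

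Cxcl12, the CXCR4 ligand, had the widest range of the 4 members, 4.18 log2 units. Its values were 7.69, 5.92 and 6.99 in FFA+INT-767 cells, and 8.69, 7.14 and 7.07 in FFA cells. They were 8.94, 5.87 and 6.67 in INT-767 cells, against 10.05, 7.39 and 7.71 in Media cells. In each treatment the array of replicate 1 was the highest, and Media held the highest value within each replicate number. All treatments overlapped.

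Cxcl16, the CXCR6 ligand, was measured at 6.30, 5.88 and 6.40 in FFA+INT-767 cells and at 6.35, 6.32 and 6.27 in FFA cells, where the SD was 0.04. INT-767 cells gave 6.73, 5.83 and 6.58, and Media cells 7.25, 6.51 and 7.39. Every FFA+INT-767 array and every FFA array lay below every Media array, while INT-767 replicates 1 and 3 lay above Media replicate 2. The study chose Cxcl16 for mention from these same arrays, so its position here is not independent evidence. Outside the arrays, the paper reports lower Cxcl16, Cxcl10 and Cxcl12 by quantitative PCR in TSEC given fatty acids. The legend of that experiment gives a lower dose of oleic acid and a longer exposure than the array labels do. In sinusoidal endothelial cells from obese mice on a high fat diet it reports lower Cxcl16 and Cxcl10, while Cxcl12 was not decreased. In other non-parenchymal cells from steatotic livers it reports higher Cxcl10, Cxcl12 and Cxcl16.

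Cx3cl1, the CX3CR1 ligand, had the narrowest range, 1.07 log2 units. It gave 6.12, 7.01 and 6.70 in FFA+INT-767 cells and 6.40, 7.18 and 6.98 in FFA cells. INT-767 cells gave 6.24, 7.06 and 6.64, against 6.28, 6.78 and 6.83 in Media cells. All 4 arrays of replicate 1 lay below all 8 arrays of replicates 2 and 3, and the treatments overlapped throughout.

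**Figure D1:**
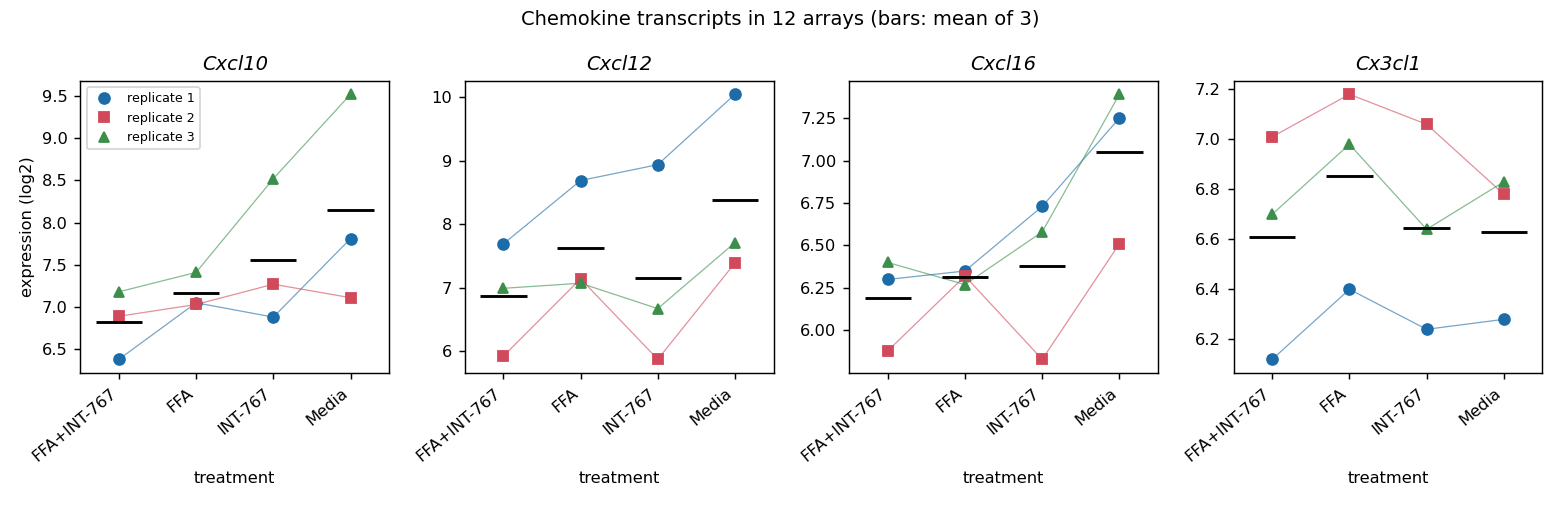
Expression (log2, y axis) of the 4 measured chemokines in each array, by treatment (x axis); colored symbols give the replicate number, thin lines join arrays of 1 number, and bars are means of 3 arrays. Cxcl16 in the FFA+INT-767 and FFA arrays lies below all 3 Media arrays, and Cx3cl1 separates by replicate number, with replicate 1 between 6.12 and 6.40.

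The first comparison sets cells given fatty acids without the agonist against Media cells. FFA cells had lower Cxcl16 than Media cells without overlap, 6.31 ± 0.04 against 7.05 ± 0.47 (SD, n = 3 each), a log2 difference of -0.74 (SE 0.23, 95% interval -1.30 to -0.19, 0.597-fold). With an adjusted p of 1 (limma), it did not pass the threshold. Cxcl10 averaged 7.16 ± 0.22 in FFA cells and 8.15 ± 1.24 in Media cells, a log2 difference of -0.99 (95% interval -2.33 to 0.35, 0.505-fold). Cxcl12 differed by -0.75 (95% interval -2.57 to 1.07) and Cx3cl1 by 0.23 (95% interval -0.36 to 0.81).
The groups did not overlap, FFA below Media, for 1 member of 4, and for 3.41% of the 24838 transcripts tested. Within same-numbered pairs, Cxcl10, Cxcl12 and Cxcl16 were lower with FFA in 3 of 3 pairs, as 12.6% of transcripts were. Cx3cl1 was higher in 3 of 3, and the share of transcripts higher in 3 of 3 is not given. The pairs were uneven: the Cxcl10 differences were -0.76, -0.09 and -2.11, and those of Cxcl16 -0.91, -0.19 and -1.13, so replicate 2 showed the smallest difference in both. Members with an unadjusted p under 0.05 numbered 1 of 4 against 2.68% of transcripts, and 2 of 4 with the block (Cxcl12 and Cxcl16, both with a limma adjusted p of 0.794) against 5.89%. The blocked 95% intervals were -1.33 to -0.17 for Cxcl12 and -1.26 to -0.23 for Cxcl16. Without Media replicate 1 the Cxcl12 difference was 0.08 and 0 of 4 members had an unadjusted p under 0.05, a fit for which the share of transcripts is not given. Without Media replicate 3 the Cxcl10 difference was -0.30.

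INT-767 alone was set against Media to see what the agonist did without fatty acids. Cxcl12 averaged 7.16 ± 1.59 in INT-767 cells and 8.38 ± 1.45 in Media cells (SD, n = 3 each), a log2 difference of -1.22 (SE 0.96, 95% interval -3.51 to 1.07, 0.429-fold). Its 3 same-numbered differences were -1.11, -1.52 and -1.03, and so closer to each other than the levels were. The summed linear level of 11 stellate and fibroblast markers ran from 926 to 5650 in INT-767 cells and from 1690 to 8710 in Media cells, and its part in the Cxcl12 difference was not tested. Leaving out 1 array moved the Cxcl12 difference to -0.39 without Media replicate 1, to -0.575 without INT-767 replicate 2 and to -2.11 without INT-767 replicate 1. Cxcl16 differed by -0.67 (95% interval -1.42 to 0.08), with pair differences of -0.53, -0.68 and -0.81. Cxcl10 differed by -0.59 (95% interval -2.20 to 1.01) and was higher with INT-767 in replicate 2, and without Media replicate 3 the difference was 0.09. Cx3cl1 differed by 0.02 (95% interval -0.58 to 0.61) and had no common direction.
No member was free of overlap in this comparison, against 4.05% of the 25144 transcripts that lay wholly below Media. Cxcl12 and Cxcl16 were lower in 3 of 3 pairs, as 18% of transcripts were. Without the block 0 of 4 members had an unadjusted p under 0.05, against 2.92% of transcripts. With the block 2 of 4 did, against 8.07%: Cxcl12 (limma adjusted p = 0.362), whose p ranked 12 among all transcripts, and Cxcl16 (adjusted p = 0.413). The blocked 95% intervals were -1.57 to -0.88 for Cxcl12 (SE 0.13) and -0.94 to -0.40 for Cxcl16 (SE 0.10).

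Both agents together gave the lowest mean of each of the 4 members among the treatments, for Cx3cl1 by less than its spread. Set against Media, FFA+INT-767 cells differed by -1.51 in Cxcl12 (SE 0.75, 95% interval -3.29 to 0.27), by -1.33 in Cxcl10 (SE 0.58, 95% interval -2.70 to 0.03) and by -0.86 in Cxcl16 (SE 0.26, 95% interval -1.48 to -0.24), or 0.351-fold, 0.397-fold and 0.551-fold. Cx3cl1 differed by -0.02 (95% interval -0.64 to 0.60). The first 3 were lower in 3 of 3 pairs, as 16.1% of transcripts were, and Cxcl16 was lower without overlap, as 4.76% of the 25268 transcripts were. Unadjusted limma p was under 0.05 for 1 of 4 members (Cxcl16, adjusted p = 0.916), against 5.38% of transcripts. With the block it was under 0.05 for 3 of 4 (Cxcl16, Cxcl12 and Cxcl10, with limma adjusted p of 0.376, 0.442 and 0.483), against 8.83%. The blocked 95% intervals were -1.19 to -0.53 for Cxcl16, -2.32 to -0.71 for Cxcl12 and -2.35 to -0.31 for Cxcl10. With 1 array left out, the Cxcl12 difference ran from -2.01 without Media replicate 2 to -0.68 without Media replicate 1. The Cxcl10 difference ran from -1.85 without Media replicate 2 to -0.65 without Media replicate 3. Each such fit kept the array of the same number in the other treatment. The same-numbered differences were -2.35, -1.47 and -0.71 for Cxcl12 and -1.44, -0.22 and -2.34 for Cxcl10.

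Each agent was then compared in the presence of the other, in comparisons that share the FFA+INT-767 arrays. Against FFA alone, FFA+INT-767 cells differed by -0.76 in Cxcl12 (95% interval -2.12 to 0.60), with pair differences of -0.99, -1.22 and -0.07, and by -0.35 in Cxcl10 (95% interval -0.88 to 0.18). Cx3cl1 differed by -0.25 (95% interval -0.92 to 0.43), with even pair differences of -0.28, -0.17 and -0.29, and Cxcl16 by -0.11 (95% interval -0.48 to 0.25). Cxcl10, Cxcl12 and Cx3cl1 were lower in 3 of 3 pairs, as 20.8% of transcripts were, and no member was free of overlap (4.6% of 24824 transcripts lay wholly below FFA). Without the block 0 of 4 members reached an unadjusted p under 0.05 (4.73% of transcripts did), and with it Cxcl12 (limma adjusted p = 0.366) and Cx3cl1 (adjusted p = 0.38) did, 2 of 4 against 12.1%. The blocked 95% intervals were -1.39 to -0.13 for Cxcl12 and -0.46 to -0.03 for Cx3cl1.

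Against INT-767 alone, FFA+INT-767 cells differed most in Cxcl10, by -0.74 (SE 0.43, 95% interval -1.76 to 0.28), and it was lower in 3 of 3 pairs, with differences of -0.50, -0.38 and -1.34. Lower values in 3 of 3 pairs were seen for 11.4% of transcripts, and none of the members was wholly below INT-767, as 2.21% of 25041 transcripts were. Cxcl12 differed by -0.29 (95% interval -2.22 to 1.64), Cxcl16 by -0.19 (95% interval -0.81 to 0.44) and Cx3cl1 by -0.04 (95% interval -0.72 to 0.65), with mixed directions among the pairs. By unadjusted p, 0 of 4 members passed 0.05, against 2.14% of transcripts, and with the block 1 of 4 did (Cxcl10, limma adjusted p = 0.967), against 4.72%. The blocked 95% interval of Cxcl10 was -1.30 to -0.18.

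**Figure D2:**
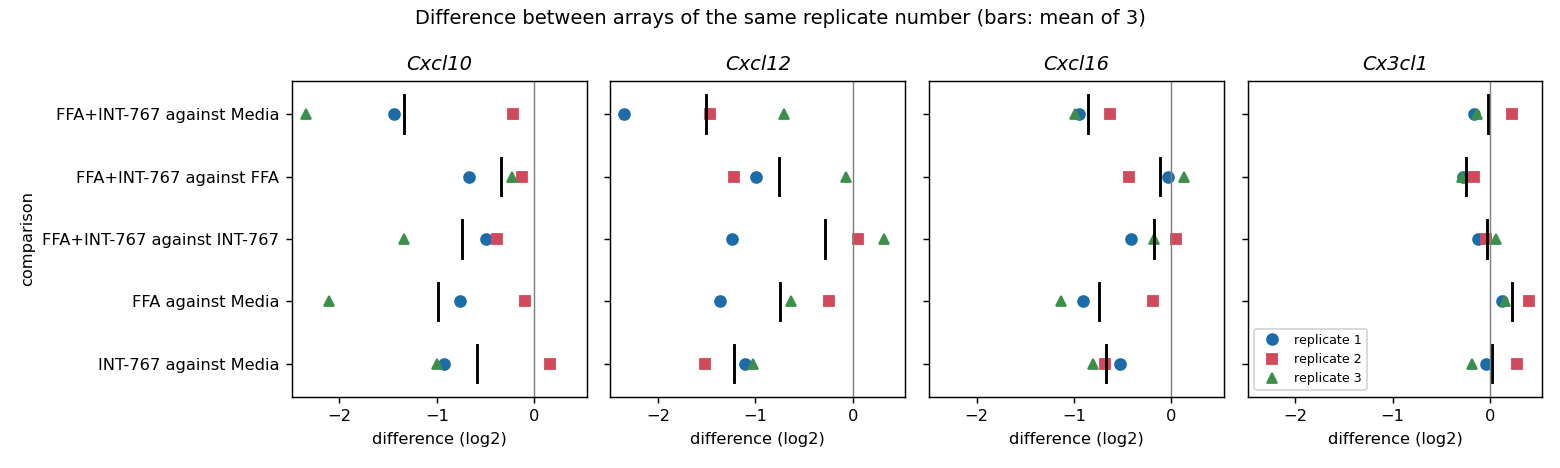
Difference in expression (log2, x axis) between arrays of the same replicate number for 5 comparisons (rows) and 4 chemokines (panels); symbols give the replicate number and bars the mean of 3. Cxcl12 in INT-767 against Media lies between -1.52 and -1.03, while Cxcl10 in FFA against Media runs from -2.11 to -0.09.

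Over all 12 arrays, the FFA effect compares the 6 arrays with fatty acids to the 6 without, and the INT-767 effect is formed likewise. The FFA effect was -0.86 for Cxcl10 (SE 0.38, 95% interval -1.69 to -0.04) and -0.47 for Cxcl16 (SE 0.20, 95% interval -0.90 to -0.03). It was -0.52 for Cxcl12 (95% interval -1.83 to 0.79) and 0.09 for Cx3cl1 (95% interval -0.34 to 0.53). Cxcl10 and Cxcl16 had an unadjusted limma p under 0.05, 2 of 4 members against 2.4% of transcripts, and an adjusted p of 1. With the block Cxcl12 joined them, 3 of 4 against 6.19%, at an adjusted p of 0.803 each. The unblocked count was 0 of 4 without Media replicate 3, INT-767 replicate 3, FFA+INT-767 replicate 2 or any 1 of the FFA arrays, and 1 of 4 without replicate 1 of Media, INT-767 or FFA+INT-767. The share of all transcripts in these fits is not given.
The INT-767 effect was -0.99 for Cxcl12 (SE 0.60, 95% interval -2.30 to 0.32), -0.47 for Cxcl10 (95% interval -1.30 to 0.36), -0.39 for Cxcl16 (95% interval -0.82 to 0.04) and -0.12 for Cx3cl1 (95% interval -0.55 to 0.32). None of the 4 had an unadjusted limma p under 0.05, against 6.27% of transcripts, and with the block Cxcl12 (adjusted p = 0.154) and Cxcl16 (adjusted p = 0.286) did, against 13.5%. The median over all transcripts was 0.00 for the FFA effect and -0.01 for the INT-767 effect.

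The interaction asks whether the FFA difference was another one in the presence of INT-767. For Cxcl16 it was 0.56 (SE 0.38, 95% interval -0.28 to 1.39): the FFA difference was -0.74 without the agonist and -0.19 with it. The interaction did not pass for any member by adjusted p, and by unadjusted limma p 0 of 4 passed 0.05 (2.69% of transcripts did), or 1 of 4 with the block (Cxcl16, adjusted p = 0.943), against 4.91%. For Cxcl10 it was 0.25 (95% interval -1.50 to 1.99), for Cxcl12 0.46 (95% interval -2.30 to 3.22) and for Cx3cl1 -0.26 (95% interval -1.17 to 0.65).

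**Figure D3:**
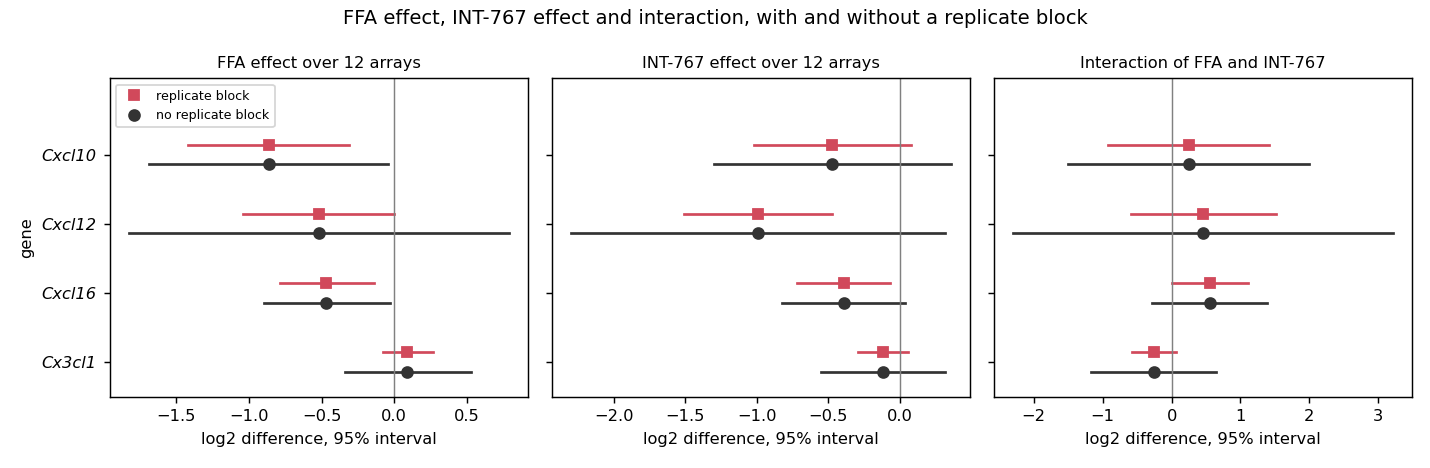
FFA effect, INT-767 effect and their interaction (log2 difference, x axis) for each chemokine (rows), as estimates with 95% intervals, with the replicate number as a block (squares) and without it (circles). The block leaves the estimates in place and shortens the intervals, as for Cxcl12 in the INT-767 effect, -1.51 to -0.47 against -2.30 to 0.32 without it.

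Of the factors tested, only the replicate number took the chemokines past the threshold. Cx3cl1 averaged 6.26 ± 0.12 in replicate 1, 7.01 ± 0.17 in replicate 2 and 6.79 ± 0.15 in replicate 3 (SD, n = 4 each; limma F test, adjusted p = 0.00248). Cxcl12 averaged 8.84 ± 0.97, 6.58 ± 0.80 and 7.11 ± 0.43 in replicates 1, 2 and 3 (adjusted p = 0.00306), so that the highest and lowest means were 2.26 apart. Cxcl10 was highest in replicate 3, at 8.16 ± 1.08, against 7.03 ± 0.60 in replicate 1 and 7.08 ± 0.16 in replicate 2 (adjusted p = 0.0494). Cxcl16 was lowest in replicate 2, at 6.14 ± 0.33, against 6.66 ± 0.44 in replicate 1 and 6.66 ± 0.51 in replicate 3 (adjusted p = 0.0483).
All 4 members passed, against 20.4% of transcripts, but the replicate number with the highest mean was 1 for Cxcl12, 2 for Cx3cl1 and 3 for Cxcl10. Cxcl10 and Cxcl16 stood just inside the threshold: of 12 fits that each left out 1 array, Cxcl10 lost the call in 9 (all but those without Media replicate 2, FFA replicate 3 or FFA+INT-767 replicate 2) and Cxcl16 in 10 (all but those without FFA replicate 2 or 3), while Cxcl12 and Cx3cl1 kept it in 12 of 12. Both lost it with all 4 arrays of replicate 1 left out, when the highest and lowest means were 0.53 apart for Cxcl12 (limma adjusted p = 0.192) and 0.22 apart for Cx3cl1 (adjusted p = 0.266). The replicate number held 85.9% of the squared spread of Cx3cl1, 68% of that of Cxcl12, 41.2% of that of Cxcl10 and 30.3% of that of Cxcl16, and the median over all transcripts was 33.2%. FFA held 28.3% for Cxcl10 and 26.9% for Cxcl16, and INT-767 held 17.9% for Cxcl12 and 19.3% for Cxcl16. The treatment group as a whole, both agents and their interaction, held 55.9% for Cxcl16, 37.3% for Cxcl10, 23.7% for Cxcl12 and 8.5% for Cx3cl1, and the median over all transcripts was 21.1%.

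**Figure D4:**
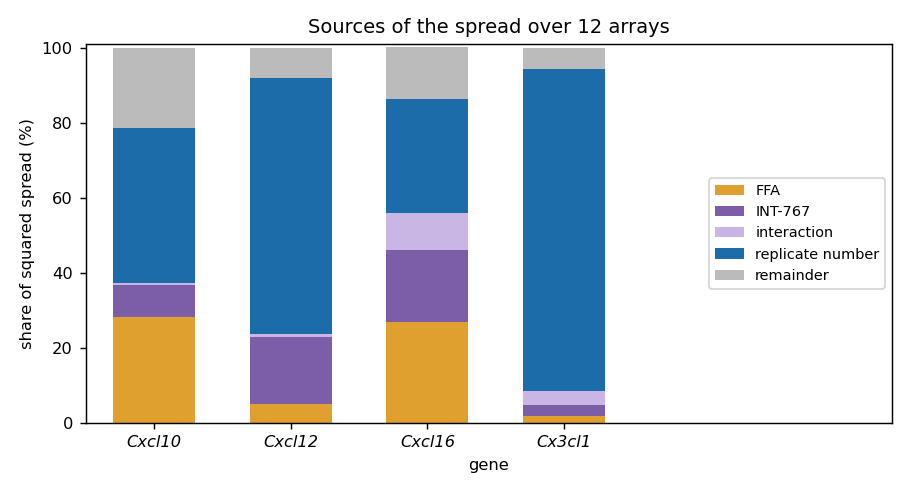
Share of the squared spread over 12 arrays (%, y axis) that goes with FFA, INT-767, their interaction, the replicate number and the remainder, for each chemokine (x axis). The replicate number takes 85.9% for Cx3cl1 and 68% for Cxcl12, and the FFA share is largest for Cxcl10, at 28.3%.

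Markers of stellate cells and fibroblasts differed by replicate number, and Cxcl12 was high in the arrays where they were high. The summed linear level of the 11 measured markers ran from 3270 to 8710 over the arrays of replicate 1, from 926 to 1690 in replicate 2 and from 1610 to 2430 in replicate 3. Of the 11, 9 passed the replicate test, against 20.4% of all transcripts. By treatment the sum ran from 1030 to 3270 in FFA+INT-767 cells, from 1550 to 5230 in FFA cells, from 926 to 5650 in INT-767 cells and from 1690 to 8710 in Media cells. All 11 had negative FFA and INT-767 effects, with medians of -0.28 and -0.51, and 0 of 11 passed the adjusted test for either. Over all transcripts the medians were 0.00 and -0.01, and the share of negative effects is not given. Over the 12 arrays the log2 sum and Cxcl12 correlated at r = 0.98, and at 0.99 once the means of the replicate numbers were taken out, a description with no test, since both measures of a point come from the same array. For Cxcl16 the values were 0.64 and 0.82, for Cxcl10 -0.01 and 0.50, and for Cx3cl1 -0.83 and 0.16. Hepatocyte markers also differed by replicate number, where 6 of 8 passed. Tat averaged 4.53, 4.80 and 6.56 in replicates 1, 2 and 3 (limma adjusted p = 0.000722), Apoa1 5.62, 5.29 and 6.94 (adjusted p = 0.00172) and Ahsg 9.94, 8.87 and 10.89 (adjusted p = 0.00124), highest in replicate 3 as Cxcl10 was. Krt8 averaged 10.66, 11.60 and 11.12 and Krt18 10.52, 11.58 and 11.18, in the order of the Cx3cl1 means. The summed linear level of the 8 ran from 3810 to 5010 in replicate 1, from 6550 to 7230 in replicate 2 and from 6220 to 7610 in replicate 3. Krt8 and Krt18 had the highest means of the 8 and weigh most in this sum, while Ahsg and Apoa1 were lowest in replicate 2. Of the endothelial markers 3 of 6 passed by replicate number, of the sinusoidal ones 2 of 5 and of the macrophage ones 0 of 4, against 20.4% of all transcripts. The part of these markers in the chemokine differences was not tested.

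**Figure D5:**
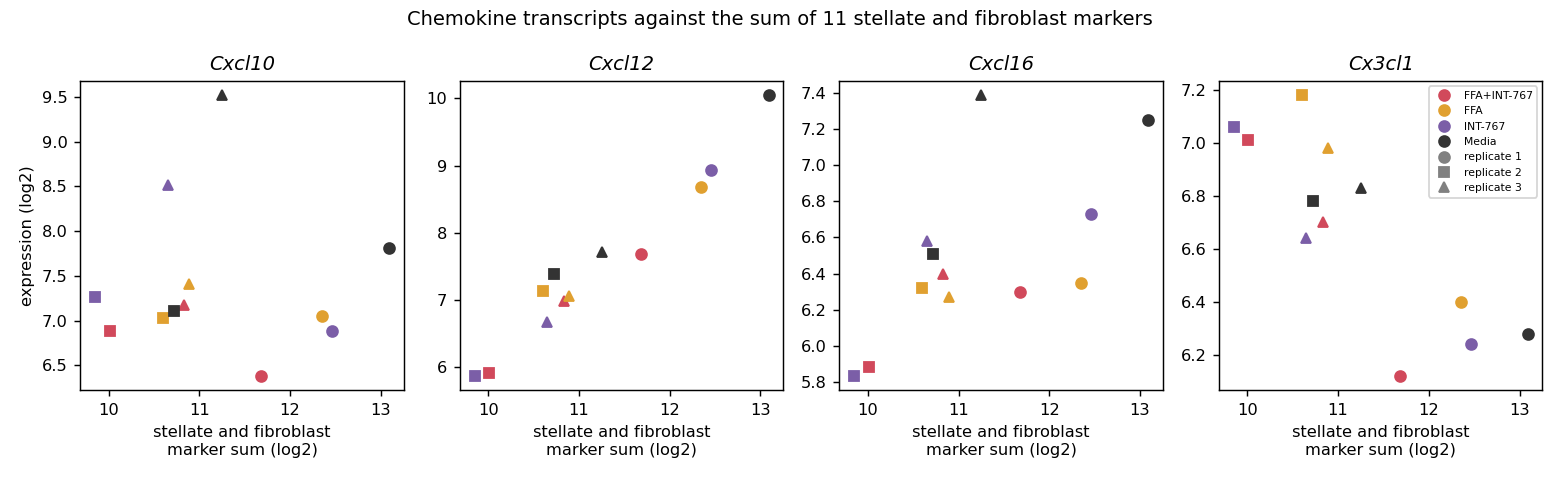
Expression (log2, y axis) of each chemokine against the log2 sum of 11 stellate and fibroblast markers (x axis) in 12 arrays; color gives the treatment and symbol the replicate number. Cxcl12 is higher where the marker sum is higher over all arrays (r = 0.98), Cxcl10 shows no such order (r = -0.01), and Cx3cl1 is low in replicate 1, where the sum is high (r = -0.83).

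The genes whose pattern over the 12 arrays was most like that of each member, among 7839 genes that varied by at least 0.5 log2 units, differed from member to member. For Cxcl12 they were Mmp2 (r = 0.992), a gelatinase that can inactivate Cxcl12 by cleavage, the growth factor receptor gene Egfr (0.983) and Tgfb3 (0.979), a ligand of the TGF-beta family. For Cxcl10 they were the endothelial lipase gene Lipg (0.957), Tbc1d15 (0.951) and the chemokine gene Cxcl15 (0.949). For Cxcl16 they were Ston1 (0.957), Flt1 (0.951), which encodes a VEGF receptor, and Birc3 (0.947), an inhibitor of apoptosis. For Cx3cl1 they were Usp46 (0.970), Riok2 (0.959) and Gfm1 (0.959). Among the members, Cxcl16 tracked Cxcl12 (r = 0.70) and Cxcl10 (r = 0.67), and with the means of the replicate numbers taken out these were 0.84 and 0.79. Cxcl12 and Cx3cl1 ran opposite over the arrays (r = -0.74) but not within replicate numbers (r = 0.13).

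Few other ligands of the same family were measured. Of 8 further CXC and XC ligands 4 were measured: Cxcl13, which attracts B cells, Cxcl14, Cxcl15 and Cxcl17. All 4 had negative FFA and INT-767 effects (medians -0.47 and -0.53), 0 of 4 passed for either effect, and 4 of 4 passed by replicate number. Cxcl13 was the most variable, with means of 9.77, 6.17 and 7.33 in replicates 1, 2 and 3 (adjusted p = 0.0019, limma). Of 20 CC ligands 11 were measured, and 2 of 11 passed by replicate number, a share near the 20.4% of all transcripts. Ccl2, the monocyte attractant, had an FFA effect of -1.20 (SE 0.52) and an INT-767 effect of -0.95 (SE 0.52), and Ccl5, which attracts T cells, an FFA effect of -0.83 (SE 0.34). Over the CC ligands the median effects were -0.02 for FFA and 0.02 for INT-767, so these values did not describe the list.

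Receptors of the members differed by at most 0.22 log2 units between means of the replicate numbers. Of 9 receptors 4 were measured, Cxcr3, Cxcr4, Cx3cr1 and Ackr3, and Cxcr4 exceeded the threshold in 5 of 12 arrays. Cxcr3 had an FFA effect of -0.14 (SE 0.07) and Cx3cr1 an INT-767 effect of 0.20 (SE 0.11), and 0 of 4 passed for FFA, INT-767 or the replicate number. Among 12 measured proteases and inhibitors, the sheddases Adam10 and Adam17, which release Cxcl16 and Cx3cl1 from the membrane, had FFA effects of -0.06 (SE 0.10) and 0.06 (SE 0.06) and INT-767 effects of -0.01 (SE 0.10) and 0.08 (SE 0.06). Mmp2 had an INT-767 effect of -0.92 (SE 0.54) and replicate means of 8.53, 6.54 and 6.82. Dpp4, the peptidase that trims Cxcl10 and Cxcl12, exceeded the threshold in 3 of 12 arrays. Of the 12, 0 passed for either effect and 6 passed by replicate number, against 20.4% of all transcripts.

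Several genes that feed into chemokine expression passed by replicate number and not by treatment. Of all transcripts 20.4% passed by replicate number, and the share with a negative FFA effect is not given. Of 20 measured genes of NF-kB signaling, 18 had a negative FFA effect, with a median of -0.08 against 0.00 over all transcripts, and 0 passed, while 10 passed by replicate number, Myd88 and Traf6 among them. Tnfaip3, an inhibitor of NF-kB signaling that NF-kB induces, had an FFA effect of -0.33 (SE 0.30) and an INT-767 effect of -0.60 (SE 0.30). Of 16 measured interferon signaling genes 15 had a negative FFA effect (median -0.08), 0 passed, and 10 passed by replicate number. Usp18, an interferon-induced brake on the type I receptor, had an FFA effect of -0.80 (SE 0.35), and Irf9, part of the complex that binds the ISRE, one of -0.54 (SE 0.30). Socs3, a feedback inhibitor of JAK kinases, had an INT-767 effect of -0.38 (SE 0.09, limma adjusted p = 0.777).

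Of 18 measured genes of heparan sulfate synthesis and syndecans, which make the surface sugars that hold chemokines in place, 10 had a positive and 8 a negative FFA effect and 9 passed by replicate number. Hs6st1, a sulfotransferase, had an INT-767 effect of -0.37 (SE 0.14) and Hs2st1, another, -0.28 (SE 0.08). Gpc1, a glypican, had replicate means of 7.55, 8.99 and 7.58. Of 9 measured factors that control decay of chemokine mRNA, 3 passed by replicate number, and Zfp36l2, which binds AU-rich elements, had an INT-767 effect of -0.39 (SE 0.14). In both lists 0 genes passed for FFA or INT-767, and of all transcripts 20.4% passed by replicate number.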

How the data were processed

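Total RNA from 12 TSEC cultures was hybridized to Affymetrix Mouse Gene 2.0 ST arrays. The deposited values are log2 expression per transcript cluster, normalized by the authors in Partek 6.6. The submitters' processing notes name RMA and the methods name GC-RMA, so which was run is uncertain. The deposited table holds only transcripts over 4.5 on the log2 scale in at least 1 array, so absent genes may lie under that threshold. They may also share a transcript annotated to several symbols. Symbols came from the platform annotation: 14317 transcripts had 1 symbol, 1397 several and 10362 none, and the transcript with the highest mean stood for a gene.

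Groups came from the treatment labels. Comparisons were fitted with limma 3.58.1 in R 4.3.3 on the 6 arrays compared, on transcripts over 4.5 in at least 1 of them. FFA and INT-767 effects, their interaction and the replicate number (F test with the treatments as covariates) were fitted on all 12 arrays. P-values were adjusted over all transcripts tested by the Benjamini-Hochberg method, and the call threshold was an adjusted p under 0.05. Intervals are 95% and moderated. Scripts were tested on simulated data.

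Same-numbered arrays deviated from their group means together: all 18 pairs correlated above 0.1 (r from 0.20 to 0.54), so the numbers pair the samples, and a fit with the replicate number as a block was the paired analysis. Leaving out arrays, other filters, scalings, priors and array weights were tried. The number of arrays limits the precision.

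Members and lists were chosen with earlier results of these data known. All members are named, and of other lists up to 4 genes with the smallest unadjusted p for the FFA effect, the INT-767 effect or the replicate number, plus receptors and proteases that act on members. The 3 genes of highest Pearson r with each member were named as most alike. Flt1, Maf, Gata4, F8, Acta2, Dcn, Col1a2, Rgs5, Cd68, Krt8, Krt18 and the absent markers were named as a check of the cell type. Motifs were searched on both strands of RefSeq promoter windows.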

Additional observations from a re-analysis of the deposited data

How the results depend on the processing

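No alternative brought a member past the adjusted threshold in a treatment comparison. All 28 sign changes were of members not called there, and of 724 alternative values of members, 667 kept direction and side.

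With the replicate block, members with an unadjusted p under 0.05 numbered 2 in FFA against Media, 2 in INT-767 against Media, 1 in FFA+INT-767 against INT-767, 2 in FFA+INT-767 against FFA, 3 in FFA+INT-767 against Media, 2 for the INT-767 effect and 1 for the interaction; the pairing changed no adjusted call. The unmoderated test gave 0 in FFA against Media, FFA+INT-767 against Media and the FFA effect. A single fit over 12 arrays gave 1 in INT-767 against Media and 2 in FFA+INT-767 against Media. Shares of all transcripts with such a p are given above with and without the block. For the other settings they are not given, so these counts are no result about the members. Array weights called 1 transcript for the INT-767 effect, and turned Cx3cl1 in FFA+INT-767 against Media to 0.008 and the Cxcl10 interaction to -0.067; a second quantile normalization turned that Cx3cl1 value to 0.015.

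With arrays left out, singly or by replicate number (leaving out a whole number was chosen after seeing the data), that member count ran from 0 to 2 in FFA against Media, 0 to 1 in INT-767 against Media, FFA+INT-767 against INT-767 and FFA+INT-767 against FFA, 1 to 3 in FFA+INT-767 against Media, 0 to 2 for the FFA effect, and 0 to 1 for the INT-767 effect and the interaction. A count of 0 became 1 without Media replicate 2 or INT-767 replicate 1 in INT-767 against Media and for the INT-767 effect (there also without FFA+INT-767 replicate 3), without INT-767 replicate 1 in FFA+INT-767 against INT-767, without FFA+INT-767 replicate 3 in FFA+INT-767 against FFA and without Media replicate 2 for the interaction; without Media replicate 2 the count was 2 in FFA against Media and 3 in FFA+INT-767 against Media. Transcripts called ran from 0 to 1 for the INT-767 effect (1 without FFA+INT-767 replicate 1), 0 to 1 for the interaction (1 without Media replicate 3), and 1111 to 4595 for the replicate number, with 3055, 3465, 3323 and 3281 without FFA replicate 1, FFA replicate 2, INT-767 replicate 1 and INT-767 replicate 3. The share of all transcripts with an unadjusted p under 0.05 is not given for fits with arrays left out, so the member counts are not set against it. A fit without 1 array keeps the array of the same number in the other treatments, so the replicate numbers are unbalanced in it. Cxcl12 ran from -1.279 to 0.083 in FFA against Media (positive without Media replicate 1), from -0.937 to 0.6 in FFA+INT-767 against INT-767 and from -0.373 to 1.351 in the interaction. Cxcl10 ran from -1.111 to 0.093 in INT-767 against Media (positive without Media replicate 3) and from -0.439 to 0.764 in the interaction. Cxcl16 ran from -0.239 to 0.045 in FFA+INT-767 against FFA. Without a sign change, Cxcl12 ran from -1.173 to -0.232 in FFA+INT-767 against FFA, and Cxcl10 from -1.078 to -0.26 in FFA+INT-767 against INT-767. Cx3cl1 ran from -0.192 to 0.218 in INT-767 against Media, -0.238 to 0.211 in FFA+INT-767 against INT-767, -0.474 to 0.001 in FFA+INT-767 against FFA, -0.223 to 0.226 in FFA+INT-767 against Media and -0.222 to 0.009 for the INT-767 effect.

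For the replicate number, the unmoderated test ended the calls of Cxcl10 (limma adjusted p = 0.131) and Cxcl16 (adjusted p = 0.112), and array weights that of Cxcl16 (adjusted p = 0.0901). Without replicate 1, none of the 4 members passed, with adjusted p from 0.14 to 0.266; without replicate 2 or 3, Cxcl16 did not pass, and without replicate 3, Cxcl10 did not. Without replicate 2 the highest and lowest means of Cxcl16 were 0.002 apart, and without replicate 3 those of Cxcl10 were 0.046 apart. Without replicate 1 or 3 those of Cxcl16 were 0.524 or 0.522 apart. Each of these fits also held fewer arrays, whose part was not tested. Averaging several transcripts of a member could not be run, since each had 1.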
